A study of Mus musculus with 15 samples.

Results

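MiR-216a, miR-216b and miR-217 were followed across a mouse α cell line and a mouse β cell line of the pancreas. Their assays were found by name, as all assays called miR-216a, miR-216b or miR-217 with any arm suffix after removal of the species prefix and assay number. This gave mmu-miR-216a, mmu-miR-216b and mmu-miR-217, 3 of the 584 miRNA assays, all on card A and each in 1 well per sample. The assays were read by real-time PCR on TaqMan array cards of a set named A and B. Each well yields a threshold cycle (Ct), the cycle at which fluorescence passes a set level, so a lower Ct means more product and 1 cycle is 1 unit on the log2 scale. There were 15 samples in 5 groups of 3 replicates. Untreated αTC1-6 were collected at 24 h and at 48 h. Treated αTC1-6 received IL-1β (50 IU/ml), IFN-γ (1000 IU/ml) and TNF-α (1000 IU/ml) for 24 h or 48 h. βTC1 were untreated and collected at 24 h. αTC1-6 is a clone of a glucagonoma line and βTC1 an insulinoma line, both from tumours of mice with a viral oncogene under a glucagon or an insulin promoter. Each cell type is thus represented by a single line, and cell type and line cannot be told apart.

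MiRNAs are short RNAs that pair with mRNAs, chiefly through the bases 2 to 8 of their 5′ end (the seed), and lower their stability and translation. MiR-216a, miR-216b and miR-217 are made from neighbouring hairpins and are best known as miRNAs of the pancreas, where acinar cells, the enzyme-secreting cells of the exocrine tissue, hold most of them. MiR-217 is also known to act on the deacetylase Sirt1.

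The mature sequences are shown because they tell how alike the 3 measured RNAs are. They are those of the 5p arms from RefSeq (GRCm38.p6, plus strand of chromosome 11), written 5′ to 3′ with the seed in capitals. The assay names carry no arm and the probe sequences were not used here, so the match to the 5p arm rests on the usual naming.

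miR-216a-5p, chr11:28757018-28757039: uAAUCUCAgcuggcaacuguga

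miR-216b-5p, chr11:28746204-28746225: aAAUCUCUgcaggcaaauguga

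miR-217-5p, chr11:28763761-28763783: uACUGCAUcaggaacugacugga

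MiR-216a and miR-216b had the same base at 18 of 22 positions. Counted from the 5′ end of miR-216a, the differences were U1A, A8U, U11A and C17A, with the base of miR-216a first. One of them, A8U, lies in the seed, so the pair shared AAUCUC at bases 2 to 7 but not base 8. MiR-217 matched miR-216a at 6 of 22 positions and miR-216b at 6 of 22. No other mature mouse miRNA in the RefSeq table carried any of the 3 seeds, and bases 2 to 7 of miR-216a and miR-216b were found in no further miRNA. The rat assays of the cards were not searched.

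The 3 hairpins, with the mature arm in capitals, lie on the plus strand in the order Mir216b, Mir216a, Mir217.

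Mir216b, chr11:28746191-28746276: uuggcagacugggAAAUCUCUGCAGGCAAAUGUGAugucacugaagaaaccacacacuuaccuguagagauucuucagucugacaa

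Mir216a, chr11:28757012-28757083: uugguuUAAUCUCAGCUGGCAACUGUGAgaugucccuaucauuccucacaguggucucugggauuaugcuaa

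Mir217, chr11:28763728-28763835: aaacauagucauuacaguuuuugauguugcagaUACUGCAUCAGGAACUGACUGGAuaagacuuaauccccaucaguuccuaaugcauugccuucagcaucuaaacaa

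Mir216b ended 10735 bases before Mir216a, and Mir216a ended 6644 bases before Mir217, so that the 3 hairpins spanned 17645 bases. In the RefSeq gene table, Mir216b lies inside the long noncoding RNA gene Mir217hg, as does Mir216c, which no assay of the cards measures. The entry Gm40818, another long noncoding RNA, stands between Mir216b and Mir216a. Beyond Mir217 follow the long noncoding RNA Gm34185 and the protein-coding gene Efemp1, and no other miRNA of the cards has its gene at this locus.

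The values exist as a normalized and a non-normalized table, which differed for these miRNAs. The normalized table gives ΔCt, the Ct of an assay minus that of miR-26a in the same sample, and holds a Ct of 40 where no product was called (undetermined). The non-normalized table gives the Ct itself. On card A, 59 to 85 wells of every 24 h sample carried a Ct in the latter that the former lists as undetermined, compared with 0 or 1 well at 48 h. MiR-26a itself had Ct values from 16.975 to 18.983. In the normalized table, 213 to 275 further miRNAs of card A had a Ct in the 24 h samples and 303 to 336 in the 48 h samples. Values below are from the normalized table unless stated. Precision is limited by the 3 replicates of a group, and since RNA was extracted in bulk, fewer cells with a miRNA and less miRNA per cell cannot be told apart.

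All 3 miRNAs had a Ct in every βTC1 sample, whereas in αTC1-6 they were mostly undetermined. Of the 36 αTC1-6 wells of the 3 assays, 5 had a Ct in the normalized table and 10 in the non-normalized table. In βTC1 replicates 1, 2 and 3, the Ct of miR-216b was 23.96, 22.57 and 21.58. Its ΔCt was 5.58, 3.83 and 4.04, with a mean of 4.48 ± 0.952 (SD, n = 3). These ΔCt correspond to 2.09%, 7.01% and 6.07% of the level of miR-26a. MiR-216b was the lowest in Ct of the 3 in each βTC1 sample.

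For miR-217 the Ct was 26.97, 24.95 and 24.53 in βTC1 replicates 1 to 3. The ΔCt of miR-217 was 8.59, 6.22 and 6.99 (mean 7.27 ± 1.21, SD, n = 3), or 0.260%, 1.34% and 0.784% of miR-26a. For miR-216a the Ct was 26.98, 24.87 and 24.94 in the same samples. Its ΔCt of 8.60, 6.13 and 7.40 (mean 7.38 ± 1.23, SD, n = 3) corresponds to 0.258%, 1.43% and 0.591% of miR-26a. Replicate 1 had the highest ΔCt of all 3 miRNAs and replicate 2 the lowest. The Ct of these 9 wells was the same in both tables.

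Within βTC1, the mean distance of miR-216b from each of the others exceeded the SD of that distance over the replicates. The Ct of miR-216a minus that of miR-216b was 3.02, 2.30 and 3.36 cycles (mean 2.89 ± 0.543, SD, n = 3), which is 7.42-fold if both assays double at each cycle. The Ct of miR-216b minus that of miR-217 was -3.01, -2.38 and -2.95 cycles (mean -2.78 ± 0.347, SD, n = 3), or 6.88-fold. MiR-216a and miR-217 did not differ beyond their spread, with 0.00914, -0.0864 and 0.408 cycles (mean 0.110 ± 0.262, SD, n = 3). The order in βTC1 was thus miR-216b first, and then miR-217 and miR-216a without a resolved order. Assays can differ in efficiency and were not calibrated against each other, so the distance between assays is one of Ct and not of molecules.

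Among the card A miRNAs with a Ct, miR-216b stood at place 95 of 242, 70 of 267 and 57 of 276 from the lowest Ct in βTC1 replicates 1 to 3. MiR-216a stood at places 154, 114 and 121, and miR-217 at places 148, 119 and 112. The median Ct of card A in these samples was 25.37, 25.69 and 25.63. MiR-216b was below the median in all 3 samples, while miR-216a and miR-217 lay above it in replicate 1 and below it in replicates 2 and 3.

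**Figure D1:**
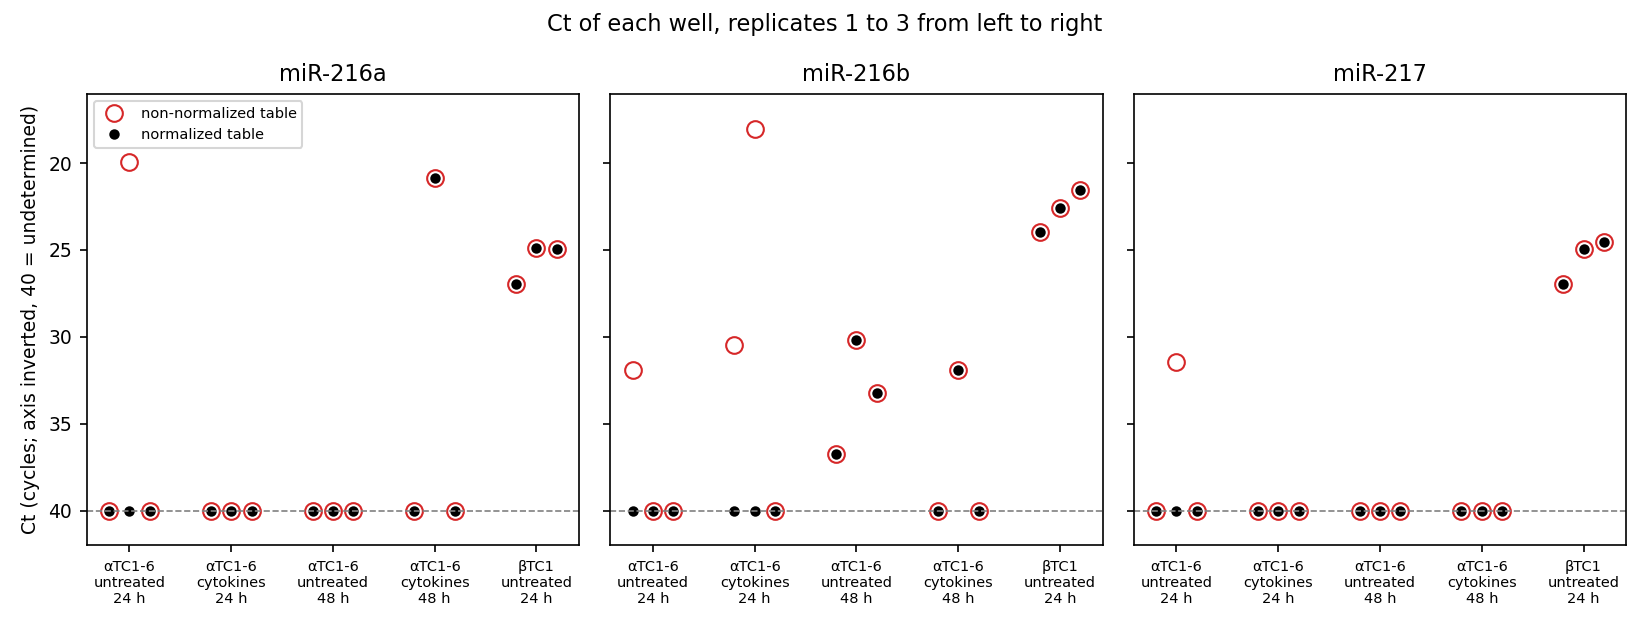
Ct of miR-216a, miR-216b and miR-217 in each of the 15 samples, with the y axis in cycles and inverted so that more product is higher, and replicates 1 to 3 from left to right within a group on the x axis. Black points are the normalized table, red rings the non-normalized table, and the dashed line at 40 marks undetermined wells. βTC1 samples lie between 21.58 and 26.98 in all 3 panels with both marks together, and rings without a black point above the line appear in the αTC1-6 groups of 24 h.

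In untreated αTC1-6 of 24 h, the αTC1-6 side of the steady state comparison, none of the 3 miRNAs had a Ct in the normalized table in any replicate. The question of this comparison was which miRNAs differ between α and β cells without treatment. Differences are given as βTC1 minus αTC1-6 on the negative ΔCt, a log2 scale, and were tested with limma over all miRNAs with p-values adjusted within each card (threshold 0.05). Of 480 miRNAs tested, 142 passed (29.6%), 85 of them higher in βTC1 (17.7%), and the median difference was 0.52. On card A alone, 127 of 281 passed (45.2%) and 78 were higher in βTC1 (27.8%).

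All 3 miRNAs entered the test through their 3 Ct values in βTC1 alone, so a difference towards βTC1 was set by the filter, and their passing is given as a description of size. MiR-216b was higher by 17.44 (standard error 0.711, adjusted p-value 1.50e-05, limma). The difference was 14.66 for miR-217 (standard error 0.799, adjusted p-value 4.08e-05) and 14.55 for miR-216a (standard error 0.808, adjusted p-value 4.19e-05). No βTC1 sample overlapped with an αTC1-6 sample for any of them, which was so in this direction for 137 of 480 miRNAs (28.5%), and the exact permutation test over the 10 splits of 3 against 3 gave p = 0.1, the lowest it can give.

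These sizes are set against the Ct of 40 of undetermined wells, so the spread of the αTC1-6 values is that of miR-26a alone. With Ct values above 35 set to 35, the differences of miR-216b, miR-217 and miR-216a were 12.44, 9.66 and 9.55, and all 3 still passed (adjusted p-values 4.77e-05, 0.000142 and 0.000144, limma).

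**Figure D2:**
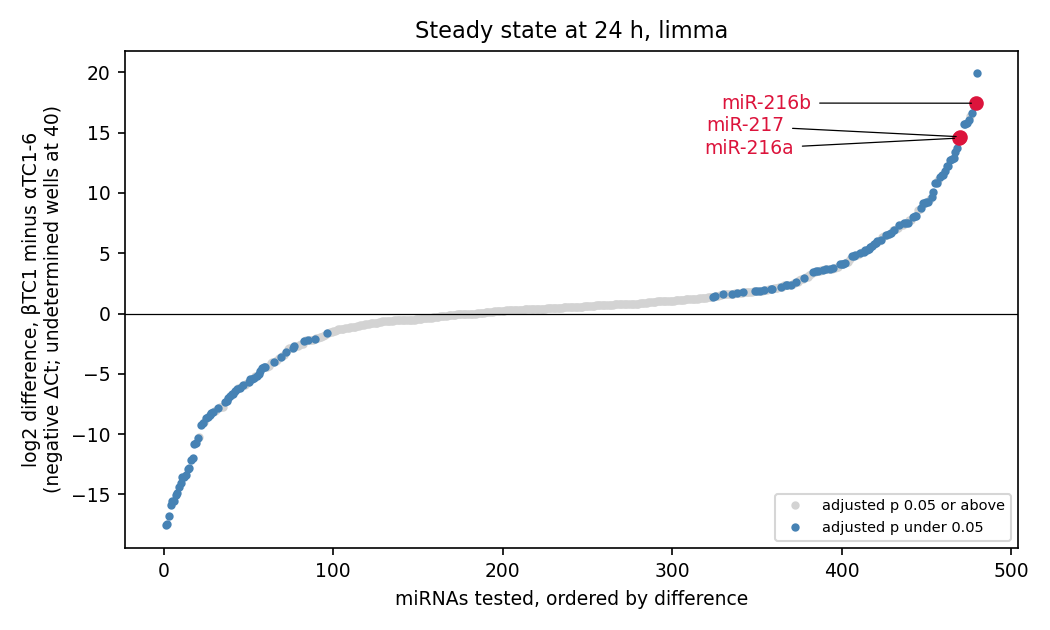
Steady state difference of each of the 480 miRNAs tested, ordered along the x axis from the lowest to the highest, with the log2 difference between βTC1 and αTC1-6 on the y axis. Blue points have an adjusted p-value under 0.05, grey points do not, and red points are miR-216b, miR-217 and miR-216a, at 17.44, 14.66 and 14.55.

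Detection in each βTC1 sample but in no untreated αTC1-6 sample of 24 h was found for 27 of 583 miRNAs (4.63%) in the normalized table, the 3 among them. A miRNA with a blank in these samples could not be counted, but stays in the 583. The same holds for the like counts below. In the non-normalized table this pattern held for 6 of 583 miRNAs (1.03%), and for none of the 3. There, miR-216b had a Ct of 31.92 in untreated replicate 1. MiR-216a had a Ct of 19.91 in untreated replicate 2, lower than its Ct in any βTC1 sample, and miR-217 a Ct of 31.47 in the same replicate. Each of these miRNAs was undetermined in the other two untreated replicates of 24 h in both tables.

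The call of miR-216a at steady state was lost when the non-normalized Ct values were used. Its difference was then 7.86 (standard error 5.68, adjusted p-value 0.447, limma), and the alternatives together gave adjusted p-values from 2.28e-05 to 0.447. MiR-216b kept a difference of 14.75 (standard error 2.82, adjusted p-value 0.0180), and miR-217 one of 11.82 (standard error 2.39, adjusted p-value 0.0217). In this fit 101 of 539 miRNAs passed (18.7%), 55 of them higher in βTC1 (10.2%). βTC1 samples did not overlap with untreated αTC1-6 for miR-216b and miR-217, and did for miR-216a. The share of all miRNAs without overlap was not counted in this fit, so this is a description only.

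The untreated αTC1-6 of 48 h hold nearly the same Ct values in both tables and give a further reading of the comparison, against βTC1 of 24 h. MiR-216a and miR-217 were undetermined in all 3 of these samples, whichever table was read. Their differences were 14.66 (adjusted p-value 8.06e-05, limma) and 14.77 (adjusted p-value 7.64e-05), again against a Ct of 40. MiR-216b had a Ct in all 3, at 36.74, 30.16 and 33.23 in replicates 1 to 3, and a ΔCt of 17.76, 13.18 and 15.28 (mean 15.41 ± 2.29, SD, n = 3). It was measured on both sides here, and was higher in βTC1 by 10.92 (standard error 1.28, adjusted p-value 0.00116). Both miRNAs belonged to the 10 of 583 (1.72%) that were detected in each βTC1 sample and in none of these, or 14 of 583 (2.4%) by the non-normalized table. In this fit 147 of 523 miRNAs passed (28.1%), 70 of them higher in βTC1 (13.4%). Time and cell line differ together in it and cannot be told apart.

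Across all 12 αTC1-6 samples, miR-217 was undetermined throughout in the normalized table. It was the 1 miRNA of 583 (0.172%) detected in each βTC1 sample and undetermined in all 12, where miRNAs with a blank could not be counted. In the non-normalized table this held for 0 of 583 miRNAs, and miR-217 had its Ct of 31.47 in untreated replicate 2 of 24 h. MiR-216a had a Ct in 1 of the 12 αTC1-6 samples in the normalized table and in 2 in the other, and miR-216b in 4 and in 7.

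**Figure D3:**
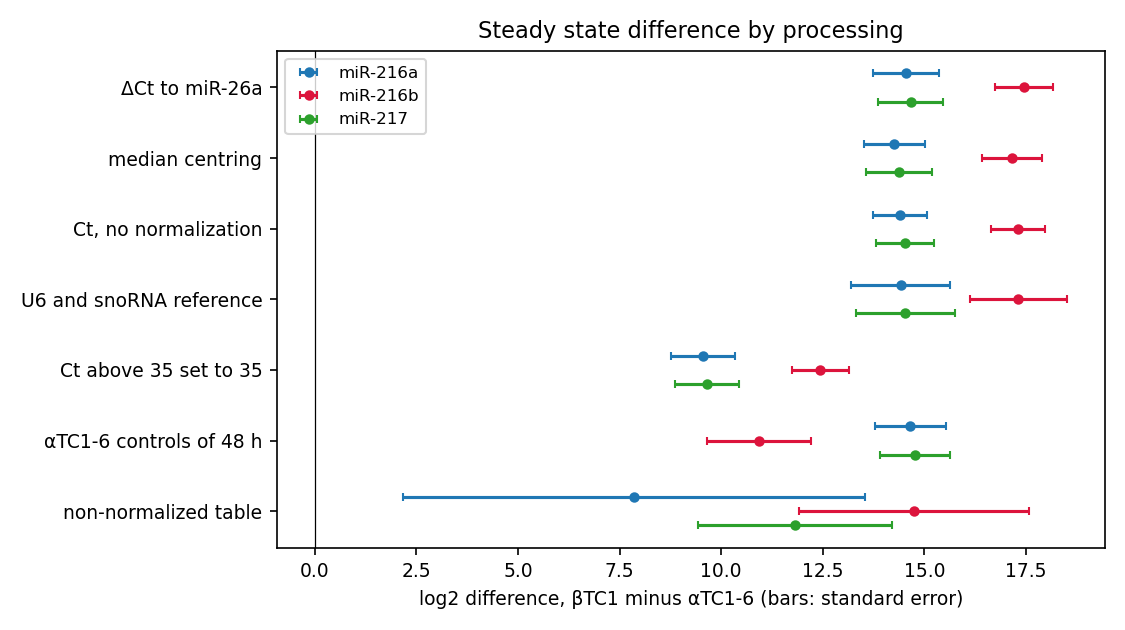
Steady state log2 difference between βTC1 and αTC1-6 (x axis) of miR-216a, miR-216b and miR-217 under 7 ways of processing (y axis), with bars of 1 standard error. Points of ΔCt to miR-26a, median centring, no normalization and the U6 and small nucleolar RNA reference lie close together, and the bar of miR-216a is widest with the non-normalized table (7.86, standard error 5.68).

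At 24 h of cytokines, none of the 3 miRNAs had a Ct in treated or untreated αTC1-6 of the normalized table, so none could be tested. Over all miRNAs, 1 of 445 passed (0.225%), and 0 with the replicate number as a block. In the non-normalized table, miR-216b had a Ct of 30.46 in treated replicate 1 and of 18.06 in treated replicate 2, and was undetermined in replicate 3. The Ct of 18.06 is lower than that of miR-216b in any βTC1 sample. MiR-216a and miR-217 were undetermined in the 3 treated samples in both tables. On these values, miR-216b differed by 7.99 between treated and untreated cells (standard error 6.23, adjusted p-value 0.989, limma), within the spread of the replicates, with 1 untreated and 2 treated samples holding a Ct.

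At 48 h, a Ct was found in treated αTC1-6 in replicate 2 alone. MiR-216b had a Ct of 31.89 (ΔCt 14.19) in this sample, and was undetermined in treated replicates 1 and 3. Against the untreated samples of 48 h it was lower by 4.01 on the log2 scale (log2 difference -4.01, standard error 2.63, adjusted p-value 0.762, limma), with overlap between the groups (exact permutation test, p = 0.3). Neither test treated these samples as paired by replicate number. With the number as a block, the standard error was 1.52 and the adjusted p-value 0.321 (limma). Over all miRNAs, 3 of 534 passed (0.562%), and 0 with the block. The difference changed sign when undetermined wells were left out as missing, to 1.22 (adjusted p-value 0.884, between 0.321 and 0.999 for all alternatives), where the treated side is that single sample. Without treated replicate 2 the difference was -6.63 (adjusted p-value 0.537), and without treated replicate 3 it was -2.44 (adjusted p-value 0.962).

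MiR-216a had a Ct of 20.86 (ΔCt 3.16, 11.2% of miR-26a) in treated replicate 2 of 48 h, lower than in any βTC1 sample, and none in the other 5 samples of 48 h. It stood at place 36 of 337 on card A there, whereas miR-216b stood at place 289. With 1 Ct it did not pass the filter. Without a filter its difference was 6.29 (standard error 5.65, adjusted p-value 0.821, limma), and in 1 fit over all 15 samples the same difference had an adjusted p-value of 0.643. The same sample held a Ct under 25 with both other replicates undetermined for 7 card A miRNAs, a limit chosen after the values were seen, against 0 to 4 in the other 14 samples of the normalized table. Besides miR-216a these were miR-10b (20.09), miR-291b-5p (23.01), miR-469 (8.15), miR-675-5p (13.52), miR-883a-5p (10.83) and miR-336 (16.74). In the non-normalized table, untreated replicate 2 of 24 h, which holds the other early Ct of miR-216a, had 9 such miRNAs. The part of these wells in the values of miR-216a was not tested. MiR-217 was undetermined in all 6 samples of 48 h.

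**Figure D4:**
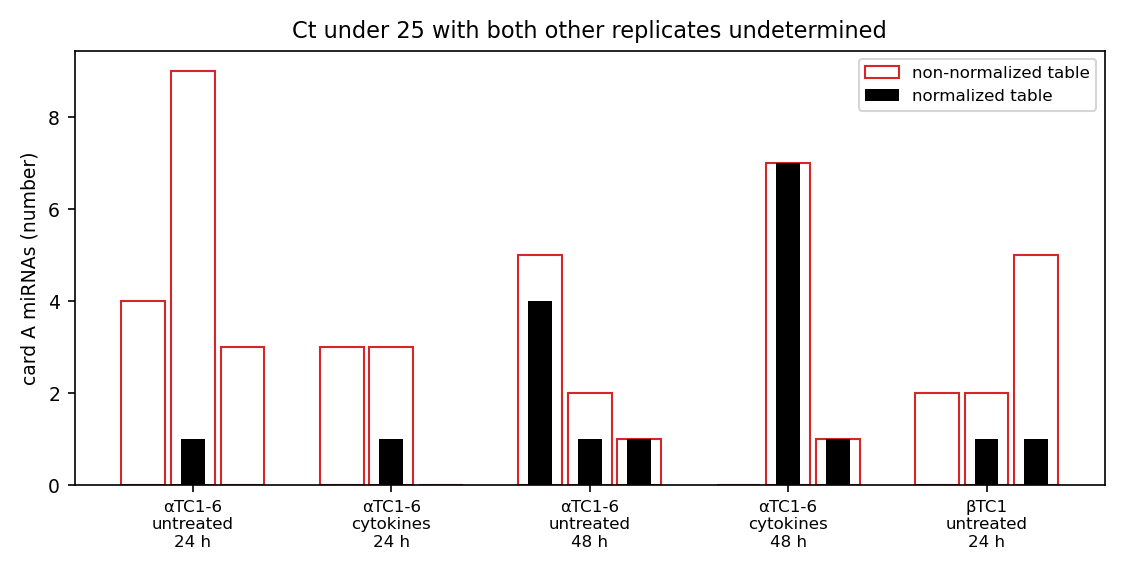
Number of card A miRNAs (y axis) with a Ct under 25 while both other replicates of the group were undetermined, for each sample, with replicates 1 to 3 from left to right in the 5 groups (x axis). Black bars are the normalized table and red outlines the non-normalized table. The highest bars are 7 in cytokine-treated αTC1-6 replicate 2 of 48 h, in both tables, and 9 in untreated αTC1-6 replicate 2 of 24 h, in the non-normalized table only.

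Between 48 h and 24 h of untreated αTC1-6, miR-216b alone of the 3 could be compared, as miR-216a and miR-217 were undetermined in all 6 samples of the normalized table and were not tested. MiR-216b was undetermined in the 3 samples of 24 h and had the Ct values of 36.74, 30.16 and 33.23 at 48 h, without overlap (53 of 489 miRNAs were above in this way, 10.8%). Since miR-216b entered this test only through its 3 Ct values at 48 h, against wells fixed at 40, the direction was set by the filter and the value is descriptive. The difference was 6.52 (standard error 1.24, adjusted p-value 0.0326, limma), and the exact permutation test gave p = 0.1, the lowest it can give. Of 489 miRNAs, 29 passed (5.93%), 27 of them higher at 48 h (5.52%). The call was lost without 48 h replicate 3 (6.46, adjusted p-value 0.0902) and without 24 h replicate 1 (6.98, 0.0915), 2 (6.26, 0.130) or 3 (6.33, 0.167). It was lost as well on non-normalized Ct values, where the difference was 3.82 (adjusted p-value 0.973, between 0.00893 and 0.973 for all alternatives) and 2 of 520 miRNAs passed (0.385%). Of 583 miRNAs, 31 (5.32%) had a Ct in all 3 untreated samples of 48 h and in none of 24 h in the normalized table, and 30 of these 31 (96.8%) had a Ct at 24 h in the non-normalized table. MiR-216b was 1 of the 30, through its Ct of 31.92. The part of the wells listed as undetermined at 24 h in this difference was not tested.

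The effect of cytokines on miR-216b at 48 h minus that at 24 h was -4.20 (standard error 2.82, adjusted p-value 0.990, limma), with 3 of 550 miRNAs past the threshold (0.545%). All 6 wells of 24 h are at 40 here, so the 24 h side holds only the shift of miR-26a, and this value says nothing of a response of miR-216b at 24 h. MiR-216a and miR-217 were not tested in this fit, with 1 and 0 Ct values in the 12 αTC1-6 samples.

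Other miRNAs of the exocrine pancreas had a Ct in both lines and did not pass at steady state. Among them, miR-141 had a Ct in only 1 αTC1-6 and 2 βTC1 samples of 24 h (difference 3.53, standard error 3.84, adjusted p-value 0.530, limma). The list held miR-148a, miR-148b, miR-141 and miR-200c, all on card A, where 127 of 281 miRNAs passed (45.2%). Of the 4, 0 passed or had an unadjusted limma p-value under 0.05, against 182 of 480 miRNAs over both cards. With 4 miRNAs, this count does not set the list apart from these shares. The median difference of the list was 1.42 against 0.52 over all miRNAs tested. MiR-148a had a ΔCt of 6.93 ± 0.938 in αTC1-6 and of 5.70 ± 0.753 in βTC1 (SD, n = 3; adjusted p-value 0.219, limma). MiR-200c, a miRNA of epithelia, had a ΔCt of 10.03 ± 0.386 and 8.42 ± 1.44 in the same samples (adjusted p-value 0.176). Summed over the list, the level was 0.993% to 2.28% of miR-26a in αTC1-6 and 2.09% to 6.09% in βTC1.

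The cards hold no mRNA, so glucagon and insulin could not be read as checks of the lines. Of 9 islet-enriched miRNAs, all had a Ct in both lines. On card A, which holds all of them but miR-7a*, 45.2% of miRNAs passed and 27.8% were higher in βTC1. Over both cards these shares were 29.6% and 17.7%. Of the 9, 2 passed, both higher in βTC1. These were miR-183 (3.52, adjusted p-value 0.0134) and miR-96 (2.37, adjusted p-value 0.0391), which come from a shared cluster best known in sensory cells. MiR-182, of the same cluster and list, did not pass (2.21, adjusted p-value 0.0692, limma). MiR-183 and miR-182 had a Ct in only 2 βTC1 samples. MiR-375, the miRNA best known for control of insulin secretion and β cell mass, had a ΔCt of -3.17 ± 0.756 in αTC1-6 and of -4.24 ± 0.173 in βTC1 (SD, n = 3; adjusted p-value 0.171). The summed level of the list was 676.4% to 1724% of miR-26a in αTC1-6 and 1818% to 2210% in βTC1.

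Markers of cells other than those of the islet were read in the same untreated samples of 24 h. There, 17.7% of all miRNAs tested and 27.8% of those on card A were higher in βTC1. Of 6 measured blood miRNAs, 4 were tested and 1, miR-142-3p of leukocytes, was higher in βTC1 (2.96, adjusted p-value 0.0477). MiR-486 had no Ct in these 6 samples, and the list summed to 0.101% to 0.223% of miR-26a in αTC1-6 and 0.0862% to 0.302% in βTC1. Of the muscle miRNAs, miR-133a was higher (5.83, adjusted p-value 0.0372) and miR-206 did not pass (1.20, adjusted p-value 0.531). The mouse assay of miR-1 had a Ct in 2 βTC1 samples and in no αTC1-6 sample of this comparison, and miR-133b in none of the 6. The rat assay of miR-1, which the list did not hold, had a Ct in 4 of the 6 samples. At least 1 of these was αTC1-6. The rat assay did not pass, and its difference leaned towards αTC1-6 by less than its standard error. The muscle list summed to 0.00749% to 0.0126% and 0.0313% to 0.0928% of miR-26a. MiR-122, of liver, had no Ct in the αTC1-6 and a Ct in 2 βTC1 samples of this comparison. At 48 h it had a Ct in all 6 αTC1-6 samples. Both endothelial miRNAs, miR-126-3p (2.39, adjusted p-value 0.0141) and miR-126-5p (2.39, adjusted p-value 0.00735), were higher in βTC1, and summed to 0.652% to 1.44% and 3.97% to 6.23% of miR-26a. The part of other cells in the levels of miR-216 and miR-217 was not tested.

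The profile of each of the 3 over the 15 samples was set against 467 other miRNAs by Pearson's r of the negative ΔCt, as a description. The samples share wells at a Ct of 40 and fall apart by cell line, so r mostly reads the distance between βTC1 and αTC1-6. For miR-216a the 5 highest were miR-10b (0.999), miR-221 (0.906), miR-883a-5p (0.877), miR-216b (0.804) and the rat assay of miR-20a* (0.784). MiR-10b and miR-883a-5p had a Ct in the same 4 samples as miR-216a, namely the 3 of βTC1 and cytokine-treated αTC1-6 replicate 2 of 48 h. For miR-216b they were miR-193* (0.902), miR-365 (0.891), miR-676* (0.885), miR-217 (0.881) and miR-139-5p (0.880), and for miR-217 they were miR-365 (0.983), miR-19b (0.982), miR-218 (0.978), miR-139-5p (0.977) and miR-676* (0.975). The r of miR-216a with miR-217 was 0.738, place 8 for miR-216a and place 56 for miR-217. With the non-normalized table, r fell to 0.285 between miR-216a and miR-216b and to 0.534 between miR-216b and miR-217, and was 0.726 between miR-216a and miR-217.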

How the data were processed

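MiRNAs of αTC1-6 and βTC1 were measured on TaqMan Rodent miRNA A and B cards after reverse transcription and preamplification. The deposited tables are Ct values in PCR cycles, not normalized, and ΔCt, log2 values that the authors obtained by subtracting the Ct of miR-26a. A table of the authors' fold changes was not used. The methods name Real-Time StatMiner, with versions not given in the sources used here, and independent biological replicates. The Ct was recovered as ΔCt plus the Ct of miR-26a, blank wells were left out (1 to 71 of 768 per sample), duplicate wells of card B were averaged, and miR-26a and 7 control assays were not tested, which left 583 miRNAs.

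Comparisons were fitted two-sided with limma 3.58.1 (lmFit, eBayes; R 4.3.3) on negative ΔCt, using the samples of the groups compared. Undetermined wells were at 40, and p-values were adjusted by Benjamini-Hochberg for card A and card B apart, with a threshold of 0.05. A miRNA was tested when its Ct was under 40 in at least as many samples as the smallest group held. The code was tested on simulated data in which every well had a Ct. That test did not cover undetermined wells at 40 or the filter. Levels, lists and sequences were computed in Python 3.11.15 with pandas 2.3.3 and numpy 2.4.6.

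The 3 miRNAs, the lists and the alternatives were chosen with earlier results of these data known. Named besides are the 5 miRNAs with the highest r to each of the 3, the listed miRNAs, miR-26a and, after their values were seen, the wells with an isolated low Ct.

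Replicate numbers were checked as pairs over 278 miRNAs with a Ct in all 15 samples. In the cytokine comparisons, r of the deviations from the group means was 0.276, 0.360 and 0.476 at 24 h, and 0.335, 0.443 and 0.259 at 48 h. These samples were therefore treated as paired by their numbers. At steady state r was 0.0783, 0.0945 and 0.0642. Between the untreated samples of 48 h and 24 h it was -0.0447, 0.238 and 0.0733, with replicate 2 near the lowest values of the cytokine comparisons. The samples of these comparisons were not treated as paired. Samples of unlike numbers were not correlated, so r does not separate pairing from a general likeness of samples.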

Additional observations from a re-analysis of the deposited data

How the results depend on the processing

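At steady state, miR-216b and miR-217 kept direction and threshold under all alternatives that could be run, and miR-216a under all but the non-normalized table (7.86, adjusted p-value 0.447, limma). Only the non-normalized table and, for miR-216b, the αTC1-6 of 48 h brought a Ct on the αTC1-6 side. In the other alternatives the αTC1-6 wells compared stayed at a constant Ct, so the direction was set beforehand and the values describe size. With each replicate left out in turn, the difference was 13.93 to 15.16 for miR-216a, 17.12 to 17.99 for miR-216b and 14.14 to 15.32 for miR-217. The median difference over all miRNAs was 0.52 relative to miR-26a and 0.24 after median centring. For miR-216b between the untreated samples of 48 h and 24 h, the count of the 3 past the threshold moved from 1 to 0 with median centring (6.72, adjusted p-value 0.0604), no normalization (6.63, 0.0836), the U6 and small nucleolar RNA reference (6.32, 0.0547), the non-normalized table (3.82, 0.973), Ct above 35 set to 35 (2.10, 0.481), 1 fit over all 15 samples (6.52, 0.0582) and a prior variance that follows the mean (6.52, 0.114). With each replicate left out, this difference was 5.41 to 7.70 and the count 0 to 1. With the replicate block it was 6.52 (adjusted p-value 0.170, count 0), and at steady state the block gave adjusted p-values of 0.00247, 0.00138 and 0.00247 for miR-216a, miR-216b and miR-217. The samples of these comparisons were not treated as paired. In the cytokine comparisons, where samples were treated as paired by number, the block changed no call of the 3 (miR-216b at 48 h -4.01, adjusted p-value 0.321). Over all miRNAs, the block left 0 of 445 past the threshold at 24 h and 0 of 534 at 48 h, against 1 and 3 without it. The sign at 48 h of cytokines turned with undetermined wells as missing (1.22). With each replicate left out it was -6.63 to -2.44, and the time difference of the cytokine effect -6.82 to -2.63. With Ct above 35 set to 35 these were -1.26 and -1.45, and with the non-normalized table -4.01 and -12.00.

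A Ct required in every sample gave no value for any of the 3 in any comparison, and undetermined wells as missing gave one only for miR-216b at 48 h of cytokines. At 24 h of cytokines, only the non-normalized table gave a value (miR-216b, 7.99). The number of undetermined wells, 3 replicates per group and the lack of any measured limit below a Ct of 40 limit these comparisons. The causes were not tested.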
